A study of Mus musculus with 15 samples.

Results

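The circadian clock genes examined here are 10 core clock and clock output genes, Arntl, Clock, Per1, Per2, Per3, Cry1, Cry2, Nr1d1, Nr1d2 and Ciart. They were chosen by symbol, and all 10 were found among the 24421 gene symbols of each deposited table with a mean above 50 normalised counts at both times. RNA was sequenced from an established biliary epithelial cell line of the C57BL/6 strain, the cells that line bile ducts, in 15 libraries. Every library, the controls included, carries the genotype ITR-CreERT2;Klf5flox/flox, a Cre recombinase that tamoxifen switches on and loxP-flanked Klf5, whose product is a zinc finger factor of the Krüppel-like family. At 12 h there were 3 libraries of the EtOH control, ethanol being the solvent, and 4 of 4-OH Tamoxifen, and at 24 h there were 4 and 4. No library received tamoxifen without the floxed alleles, so the agent, the recombinase and the loss of Klf5 cannot be told apart. The title places the structures in vitro and the design text in vivo, and the labels used here state no hour of day at collection.

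The clock is a feedback loop of transcription. ARNTL, also called BMAL1, pairs with CLOCK and activates genes through E-boxes in their promoters, among them the Per, Cry, Nr1d and Ciart genes. PER and CRY proteins, and the CIART protein, then repress ARNTL and CLOCK, while the nuclear receptors NR1D1 and NR1D2, the REV-ERB proteins, repress Arntl. In mouse liver most of these RNAs cycle daily, and cultured cells keep such cycles but drift apart unless a stimulus aligns them.

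The files hold a comparison of tamoxifen with ethanol for each time and no value per library. Levels in each group were therefore derived from a gene's mean, its fold and the number of libraries, and carry no spread of their own. Over all genes the normalised counts in the authors' deposited table summed to 13.9 M per library at 12 h and 11.8 M at 24 h. Klf5 stood at 40.9% of the ethanol level at 12 h and 30.4% at 24 h in the authors' deposited table, which places both contrasts in the labelled direction. Biliary markers were present, with summed means of 60083 and 26395 normalised counts at 12 and 24 h over 7 genes. Spp1 gave the largest part, 25377 and 14407, while Cftr was at 2.25 at 12 h and Epcam at 9.56 at 24 h. Of these 7, Krt7 was called lower at 12 h, and at 24 h Krt19 and Tspan8 were called lower in the Wald test of the authors' deposited table. Of 5 endothelial markers 3 were at 0 at both times, and of 6 fibroblast and stellate markers 5 were at 0 at 12 h and 3 at 24 h. Summed means were at most 1.75 for the endothelial and 29.6 for the fibroblast list, and 80.7 for 5 immune markers, of which Cd3e was at 0. The 6 hepatocyte markers summed to 1980 normalised counts at 12 h and 718 at 24 h, mostly Apoa1, with Cyp3a11 at 0. The part of contaminating cells in the results below was not tested. Whether the replicates came from separate cultures is not stated in the labels, and the p-values reflect no more than the spread among these libraries, which may be technical.

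Promoter sequences were read for 9 of the 10 genes, in 13 windows of RefSeq on GRCm38.p6 that reach from 250 bases before to 50 bases after a start site. The gene not found there is Per2. On both strands the windows were searched for the E-box CACGTG and its variant CACGTT, bound by the CLOCK and ARNTL pair, the D-box TTATGTAA or TTACGTAA, bound by DBP, TEF, HLF and NFIL3, and the nuclear receptor hexamer AGGTCA. None of these letters overlap another in the windows shown. Of 6 windows of genes called at 24 h that hold a match, 5 are printed, with that of Per3, whose fold had the opposite sign to those of Per1 and Per2, and capitals mark the matches. The one not printed lies at 1 of 3 start sites of Clock and holds AGGTCA.
Per1, chr11:69098699-69098998, forward strand: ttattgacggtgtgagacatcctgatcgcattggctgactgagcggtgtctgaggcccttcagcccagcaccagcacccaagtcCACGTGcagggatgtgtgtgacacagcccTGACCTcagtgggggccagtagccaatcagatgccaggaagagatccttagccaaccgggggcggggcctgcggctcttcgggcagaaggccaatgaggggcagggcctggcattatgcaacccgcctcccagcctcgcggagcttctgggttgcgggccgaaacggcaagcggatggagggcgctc
Cry1, chr10:85185005-85185304, reverse strand: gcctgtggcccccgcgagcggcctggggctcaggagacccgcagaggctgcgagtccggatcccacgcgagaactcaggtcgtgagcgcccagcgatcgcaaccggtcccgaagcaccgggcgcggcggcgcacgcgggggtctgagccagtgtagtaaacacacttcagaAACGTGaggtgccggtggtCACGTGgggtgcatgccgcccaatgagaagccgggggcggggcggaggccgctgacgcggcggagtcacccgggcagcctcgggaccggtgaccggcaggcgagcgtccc
Ciart, chr3:95882179-95882478, reverse strand: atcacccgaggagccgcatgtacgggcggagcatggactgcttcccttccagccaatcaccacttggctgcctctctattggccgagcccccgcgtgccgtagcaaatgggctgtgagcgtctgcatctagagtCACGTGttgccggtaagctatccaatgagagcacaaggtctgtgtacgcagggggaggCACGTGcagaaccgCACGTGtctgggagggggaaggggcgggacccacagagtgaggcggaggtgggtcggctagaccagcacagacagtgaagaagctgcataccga
Nr1d1, chr11:98775328-98775627, reverse strand: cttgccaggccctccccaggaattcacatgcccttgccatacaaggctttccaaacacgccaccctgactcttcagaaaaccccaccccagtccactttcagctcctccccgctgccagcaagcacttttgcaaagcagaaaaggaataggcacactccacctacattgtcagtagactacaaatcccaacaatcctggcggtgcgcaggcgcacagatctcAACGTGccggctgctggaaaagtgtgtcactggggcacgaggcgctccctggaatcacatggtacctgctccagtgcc
Nr1d2, chr14:18239057-18239356, reverse strand: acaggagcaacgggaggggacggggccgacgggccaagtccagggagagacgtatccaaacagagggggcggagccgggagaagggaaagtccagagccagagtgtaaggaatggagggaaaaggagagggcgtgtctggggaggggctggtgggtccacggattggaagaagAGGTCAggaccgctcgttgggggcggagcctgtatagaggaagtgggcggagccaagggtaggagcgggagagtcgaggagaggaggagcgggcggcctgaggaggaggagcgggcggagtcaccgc
Per3, chr4:151044616-151044915, reverse strand: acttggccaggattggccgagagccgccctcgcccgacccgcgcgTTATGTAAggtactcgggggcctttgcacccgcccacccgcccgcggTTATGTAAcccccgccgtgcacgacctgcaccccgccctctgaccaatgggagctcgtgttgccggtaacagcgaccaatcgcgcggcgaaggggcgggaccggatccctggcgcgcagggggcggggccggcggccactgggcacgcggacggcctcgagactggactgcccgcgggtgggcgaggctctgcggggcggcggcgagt

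CACGTG was found in windows of 3 members, Per1, Cry1 and Ciart, and in 7.15% of all 32851 windows in the reference. Ciart held 3 copies, beginning 116, 58 and 44 bases before the start site, against 1 each in Per1 and Cry1. CACGTT was found in Cry1, Cry2 and Nr1d1, and in 4.68% of all windows. TTATGTAA was found in Per3 alone among the 9 genes, in 2 copies, against 0.938% of all windows, and TTACGTAA in none of the 9, against 0.119%. AGGTCA was found in 1 window each of Per1, Nr1d2, Arntl and Clock, and in 16.3% of all windows. The CRE TGACGTCA was in no member's window and in 1.79% of all. CACCC, letters bound by many Krüppel-like factors, was in windows of 7 of the 9 genes and in 57.5% of all windows. Members were counted by gene, with a match in any of the gene's windows, while the shares are per window. The 9 genes have 13 windows, so the member counts are not directly comparable with those shares. A match describes the letters only and is not evidence of binding.

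At 24 h 4 of the 6 Per, Cry and Ciart genes fell and both REV-ERB genes rose. Of the 10 genes 5 fell and 2 rose with tamoxifen, at an adjusted p under 0.05 in the Wald test of the authors' deposited table. The falls were Clock and the repressor genes Per1, Per2, Cry1 and Ciart, and the rises were both REV-ERB genes, Nr1d1 and Nr1d2. Arntl, Per3 and Cry2 did not pass. Among all 11648 genes with an adjusted p, 12.4% were called, 6.52% lower and 5.90% higher, and among those averaging 50 or more normalised counts 13.8% were called. The median log2 fold of the 10 genes was -0.15, beside 0.00 for all genes with an adjusted p. In cells sampled in bulk, a change in RNA per cell and a change in the share of cells in a given clock phase cannot be told apart.

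**Figure D1:**
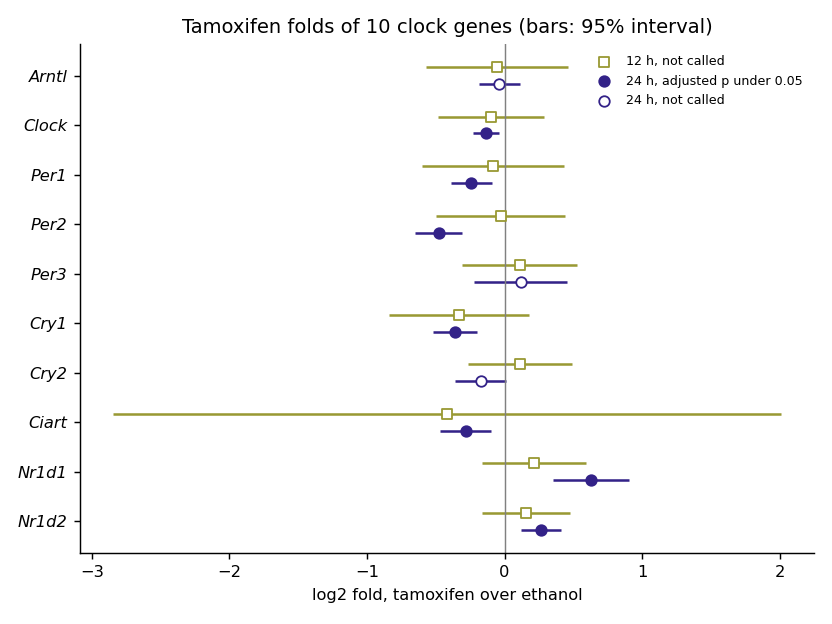
Log2 fold of tamoxifen over ethanol for the 10 clock genes, with 95% intervals, at 12 h (squares) and 24 h (circles); filled symbols were called at an adjusted p under 0.05. At 24 h the 5 falls and the 2 REV-ERB rises lie clear of 0, while every 12 h interval crosses 0.

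Among the activators, Clock, on chromosome 5 from 76209868 to 76304792 on the reverse strand of GRCm38, encodes the histone acetyltransferase partner of the pair. Its level at 24 h, derived from the authors' deposited table, was 1710 normalised counts in ethanol and 1558 in tamoxifen. Clock fell by 0.13 on the log2 scale (SE 0.05) to 91.1% of ethanol (95% interval 85.3% to 97.3%), with an adjusted p of 0.0439 in the Wald test of the authors' deposited table. This was the smallest called change among the 10 genes. It did not pass when the adjustment took in every gene with a p (adjusted p = 0.0595), when folds were centred on the median gene (0.0547) or with the larger of its own and the similar-mean standard error (0.0936). Arntl, its partner gene and a target of the REV-ERB proteins, stood at 469 normalised counts in ethanol and 457 in tamoxifen. Its log2 fold of -0.04 (SE 0.08) from the authors' deposited table had an adjusted p of 0.83 in the Wald test, and its 95% interval covered 87.8% to 108% of ethanol.

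The period genes encode the scaffold proteins of the repressor complex, and Per1 and Per2 also respond acutely to cyclic AMP and glucocorticoid signals. Per2 lies on chromosome 1 from 91415982 to 91459324 on the reverse strand of GRCm38. It had the deepest fall of the 10 genes, with 536 normalised counts in ethanol and 385 in tamoxifen. It fell by 0.48 on the log2 scale (SE 0.09) to 71.8% of ethanol (95% interval 63.8% to 80.9%), with an adjusted p of 2.32e-06 in the Wald test of the authors' deposited table. Per1 stood at 2063 normalised counts in ethanol and 1744 in tamoxifen, and fell by 0.24 (SE 0.08; adjusted p = 0.0176 in the Wald test of the authors' deposited table). Its remaining level was 84.5% of ethanol. Per3, which is not required for the core rhythm in mice, stood at 63.4 normalised counts in ethanol and 68.8 in tamoxifen. Its log2 fold of 0.12 (SE 0.17; adjusted p = 0.75 in the Wald test of the authors' deposited table) had the opposite sign to those of Per1 and Per2, with a 95% interval from 85.9% to 137% of ethanol.

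The cryptochromes are the main repressors of the ARNTL and CLOCK pair, and CIART is a further repressor of it. Cry1 stood at 627 normalised counts in ethanol and 489 in tamoxifen. Cry1 fell by 0.36 on the log2 scale (SE 0.08) to 78.0% of ethanol (95% interval 69.9% to 87.1%), with an adjusted p of 0.000243 in the Wald test of the authors' deposited table. Cry2 stood at 990 and 877 normalised counts, and its log2 fold of -0.17 (SE 0.10) did not pass, with an adjusted p of 0.25 in the Wald test of the authors' deposited table. Its 95% interval, 77.8% to 101% of ethanol, includes the value of Cry1, and the difference between the cryptochromes was not tested. Of the exon bases of Cry2, 4.67% lie opposite a gene on the other strand. Ciart stood at 399 normalised counts in ethanol and 328 in tamoxifen. Ciart fell by 0.28 (SE 0.09; adjusted p = 0.0266 in the Wald test of the authors' deposited table) to 82.2% of ethanol. Per1, Cry1 and Ciart, called lower, are the 3 members with CACGTG in a promoter window. No window of Clock, also called lower, or of Nr1d1 and Nr1d2, called higher, holds it. The variant CACGTT was in windows of Nr1d1, called higher, Cry1, called lower, and Cry2, not called. Per2 had no window, and a link between these letters and the folds was not tested.

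The REV-ERB genes encode heme-binding receptors that compete with the ROR activators at the Arntl promoter. Nr1d1 stood at 106 normalised counts in ethanol and 164 in tamoxifen. It rose by 0.63 on the log2 scale (SE 0.14) to 154% of ethanol (95% interval 128% to 187%), with an adjusted p of 0.000221 in the Wald test of the authors' deposited table, the largest change of the 10 genes. The 3' end of Nr1d1 overlaps that of Thra, a thyroid hormone receptor gene on the opposite strand, over 8.55% of its exon bases. The library kit does not mark strand, so reads there cannot be told apart. Thra stood at 0.26 (SE 0.11; adjusted p = 0.0831 in the Wald test of the authors' deposited table). Nr1d2 stood at 530 normalised counts in ethanol and 637 in tamoxifen, and its exons overlap no exon of another gene in GENCODE. It rose by 0.26 on the log2 scale (SE 0.08) to 120% of ethanol, with an adjusted p of 0.00687 in the Wald test of the authors' deposited table. Arntl, a target gene of the REV-ERB proteins, did not pass in the same libraries, as given above. Whether the rise of the REV-ERB genes acted on any target was not tested.

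The same comparison at 12 h gave no call. Of the 10 genes 0 passed in the Wald test of the authors' deposited table and 0 had an unadjusted p under 0.05. Among all 13044 genes with an adjusted p, 0.943% were called, 0.728% lower and 0.215% higher, and 4.90% of genes with a p lay under an unadjusted 0.05. Cry1 had the smallest p, 0.21, with a log2 fold of -0.33 (SE 0.26) in the Wald test of the authors' deposited table. Its derived levels were 358 normalised counts in ethanol and 285 in tamoxifen. Nr1d1 stood at 0.21 (SE 0.19) and Nr1d2 at 0.16 (SE 0.16) from the authors' deposited table. Per2 stood at -0.03 (SE 0.24), Per1 at -0.08 (SE 0.26) and Clock at -0.10 (SE 0.20) from the authors' deposited table. Arntl was at -0.05 (SE 0.26), Cry2 at 0.11 (SE 0.19), Per3 at 0.11 (SE 0.21) and Ciart at -0.42 (SE 1.24) from the authors' deposited table. All 7 genes called at 24 h had the same sign at 12 h, as had 90.2% of the 1447 genes called at 24 h among all genes. Of the 10 folds at 24 h, 9 lay inside the gene's own 95% interval at 12 h. The exception was Nr1d1, whose interval ended at 0.59. The 12 h intervals are wide, that of Ciart running from -2.84 to 2.01, and the share over all genes is not given here. The count is therefore not a sign of agreement particular to clock genes.

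The difference between the times was then tested itself. No fold of the 10 genes passed as different between 12 and 24 h in the Wald test of the difference. There 0 had an adjusted p and 0 an unadjusted p under 0.05. Over all 14981 genes, 0.0134% passed the adjusted and 1.64% the unadjusted threshold. The latter is fewer than a threshold of 0.05 would give if no fold differed, so the test was cautious here and can miss differences. The smallest p were those of Per2, with a difference of -0.45 (SE 0.25, unadjusted p = 0.0772), and Nr1d1, with 0.41 (SE 0.24, unadjusted p = 0.0836), in the Wald test from the authors' deposited table. The 95% interval of the Per2 difference, -0.95 to 0.05, includes 0. For Cry1 the difference was -0.03, with an interval from -0.56 to 0.50.

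At 12 h several clock genes had larger errors than genes of similar level. Standard errors were a median of 2.96 times those at 24 h over the 10 genes, and 1.94 times over 9861 genes averaging 50 or more normalised counts at both times. Each standard error was set against the running median of genes of similar mean. In the authors' deposited table at 12 h, Ciart had an error of 6.05 times that median, Per1 of 1.82 times, Cry1 of 1.53 times and Arntl of 1.52 times. At least 1.5 times was thus reached by 4 of 10 genes, against 6.89% of genes with a mean of at least 50. This ratio was higher for Ciart than for 99.9% of all genes with a mean of at least 50. Per2 (1.39 times), Clock (1.33) and Cry2 (1.26) lay between, and Per3, Nr1d1 and Nr1d2 were at 0.862 to 1.01 times. Nfil3, the repressor at D-boxes, and Bhlhe40, an E-box repressor also called DEC1, were at 5.22 and 2.03 times. With Noct, a clock output gene, at 1.60 times, they were the 3 of 32 further pathway genes that reached 1.5 times, with a median over the list of 1.0. At 24 h, 1 of the 10 genes reached 1.5 times, Cry2 at 1.51, against 4.91% of genes. Which libraries carry the spread cannot be read from the tables, and its cause was not tested.

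**Figure D2:**
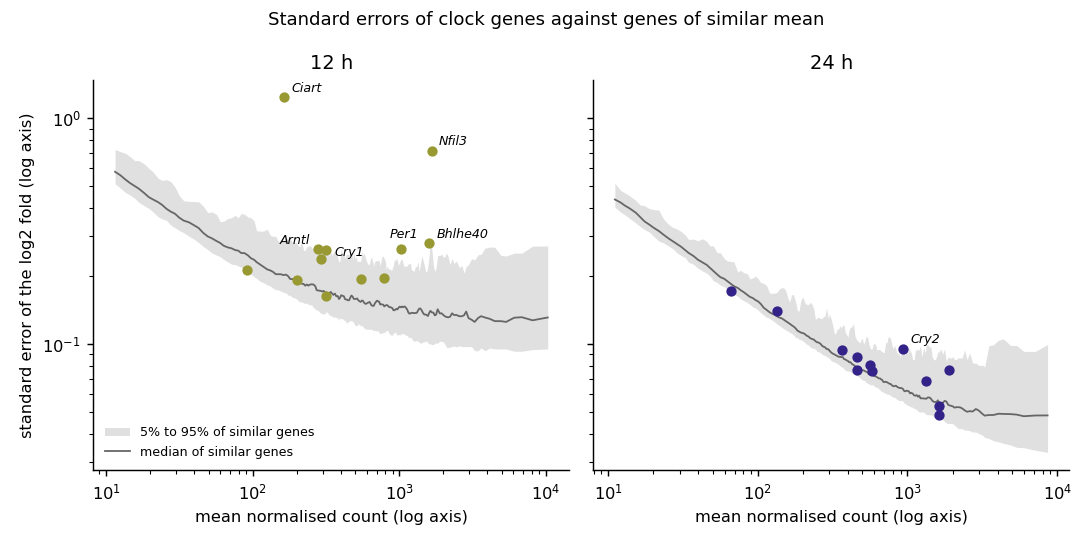
Standard error of the log2 fold against the mean normalised count, both on log axes, for the 10 clock genes with Nfil3 and Bhlhe40 (points) over the median (line) and the central 90% (band) of genes of similar mean. At 12 h Ciart and Nfil3 stand far above the band, and at 24 h Cry2 is the labelled gene at 1.51 times the median.

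Levels were next set side by side between the tables, in normalised counts per M of each table's total (CPM). The tables were normalised separately, so this is a description with no test. In ethanol 8 of the 10 genes were higher at 24 h than at 12 h, and 7 were at least 2-fold higher. Of all 9861 genes with a mean of at least 50 at both times, 46.8% were higher at 24 h. At least 2-fold higher were 7.98%, at least 2-fold lower 9.20% and either 17.2%. The median log2 difference of the clock genes was 1.08, beside -0.06 over all genes. Ciart stood at 13.7 CPM at 12 h and 33.7 at 24 h in ethanol, and Clock at 58.8 and 144, the highest ratios of the 10 genes, at 2.46 and 2.45. Per1 stood at 76.1 and 174 CPM, Per2 at 21.3 and 45.3, Cry1 at 25.7 and 53.0, and Cry2 at 37.4 and 83.6. Nr1d2 stood at 21.3 and 44.8 CPM and Arntl at 20.4 and 39.6, a difference of 0.95.

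Nr1d1 and Per3 went the other way. In ethanol Nr1d1 stood at 13.2 CPM at 12 h and 8.96 at 24 h, a log2 difference of -0.56, and Per3 at 6.33 and 5.35, a difference of -0.24. The REV-ERB genes thus differed in direction, with Nr1d2 at 1.07. Thra, which lies opposite 8.55% of the exon bases of Nr1d1, stood at a log2 difference of -0.57 in ethanol. Reads there cannot be told apart, and the part of Thra in the level of Nr1d1 was not tested. Dbp, an output factor gene driven by E-boxes, stood at a log2 difference of -0.69, from means of 34.4 normalised counts at 12 h and 18.3 at 24 h in the authors' deposited table, below the mean of 50 set for this comparison. Tef, which encodes a D-box factor as Dbp does, stood at 0.64.

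In the tamoxifen libraries the same 8 genes were higher at 24 h, and 5 of them at least 2-fold. Among all genes 46.7% were higher, 6.90% at least 2-fold higher, 8.14% at least 2-fold lower and 15.0% either. The log2 difference of Per2 was 0.64 in tamoxifen and 1.09 in ethanol, that of Cry2 was 0.87 and 1.16, and that of Nr1d1 was -0.15 and -0.56. These gaps equal the differences between the folds given above, none of which passed. With scaling by the median ratio in place of the total, Arntl also exceeded 2-fold in ethanol, and no gene changed direction under any scaling tried. Averaged over all libraries of a time, without use of the 12 h fold, the difference of Ciart was 1.39. Its 12 h mean still carries the spread among libraries behind the standard error of 1.24 of that fold.

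**Figure D3:**
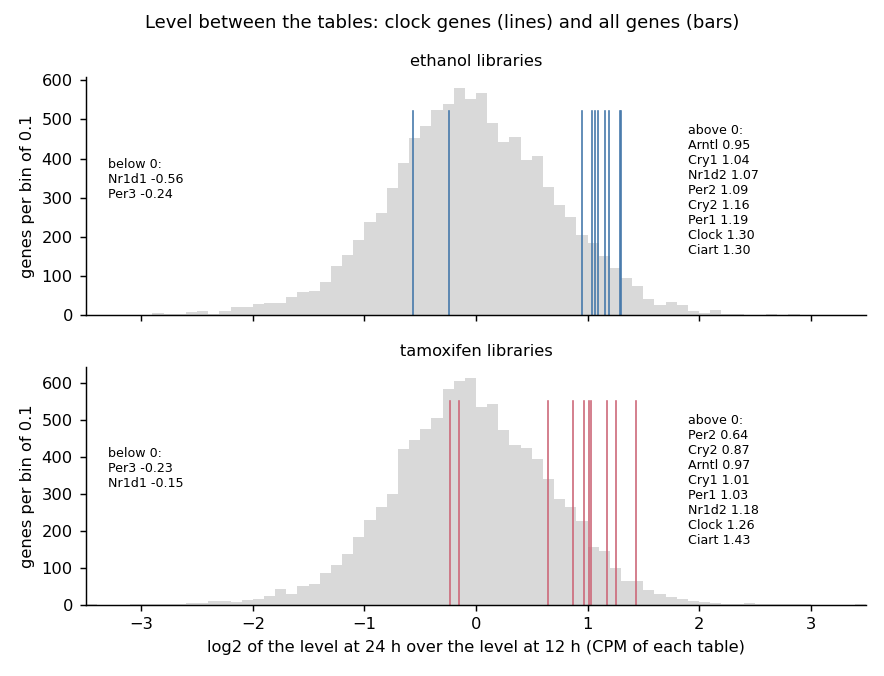
Log2 of the level at 24 h over that at 12 h for the 10 clock genes (lines, values listed) over the distribution of 9861 genes (bars, number per bin of 0.1), in ethanol and in tamoxifen. In both panels 8 genes lie above 0 and Nr1d1 and Per3 lie below.

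Levels can be compared between genes only per length, and were divided by merged exon length in GENCODE M21. In ethanol at 24 h Per1 was the highest, at 30.9 CPM per kb, followed by Cry1 at 15.9, Ciart at 14.9, Cry2 at 13.2 and Clock at 10.5. Nr1d2 stood at 8.28, Per2 at 7.73, Arntl at 5.26, Nr1d1 at 2.91 and Per3 at 0.557. Per1 was the highest and Per3 the lowest in all 4 groups, and also per kb of the longest transcript. With that length Cry2 stood above Cry1, in tamoxifen at 24 h at 18.6 against 13.7. In tamoxifen at 12 h Cry2 also stood above Cry1 per kb of merged exons, and Ciart, at 4.55, stood below both. The order of Cry1, Ciart and Cry2 therefore depends on the length used and on the group, and neighbours cannot be separated without values per library. At 12 h in ethanol Per1 stood at 13.5, Nr1d1 at 4.30 above Nr1d2 at 3.94, and Per3 at 0.659. At 24 h the REV-ERB genes stood the other way round.

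**Figure D4:**
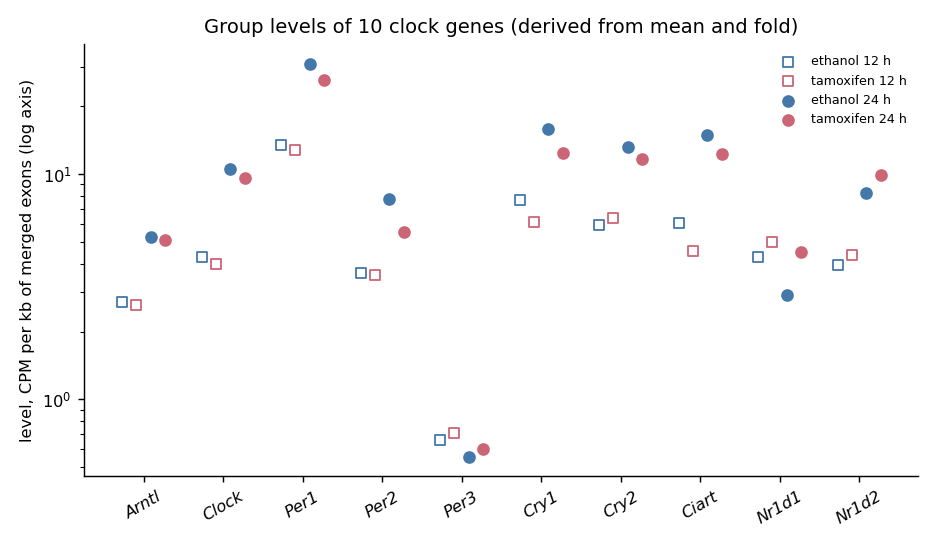
Derived level of each clock gene in the 4 groups, in CPM per kb of merged exons, on a log axis; there are no error bars because the tables hold no value per library. The 24 h points lie above the 12 h points for 8 genes, and below them for Nr1d1 and Per3; for Nr1d1 the ethanol level goes from 4.30 to 2.91 CPM per kb and the tamoxifen level from 4.99 to 4.49.

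A list of 32 further clock pathway genes was read in the same way. All 32 were found in the tables, 2 under older symbols, and 29 had an adjusted p at 24 h. At 24 h 1 rose, 1 fell and 27 did not pass in the Wald test of the authors' deposited table. Among all genes 12.4% were called. Of the 31 listed genes with a p, 8 had an unadjusted p under 0.05, against 18.0% of all genes with a p. The called share was thus below that of all genes, and the unadjusted share above it. The median log2 fold of the list was -0.01. Wee1, a G2 checkpoint kinase gene known as an E-box target of the clock in mouse liver, rose by 0.40 (SE 0.11) to 132% of ethanol, with an adjusted p of 0.00420 in the Wald test of the authors' deposited table. Its derived level was 149 normalised counts in ethanol and 197 in tamoxifen. Nampt, the rate-limiting enzyme of NAD salvage and also a clock target, fell by 0.18 (SE 0.05) to 88.4% of ethanol, with an adjusted p of 0.00985 in the Wald test of the authors' deposited table. At 12 h 0 of 30 genes with an adjusted p passed in the Wald test of the authors' deposited table, and 2 had an unadjusted p under 0.05, Wee1 at 0.33 (SE 0.15) and Rorb at 0.68 (SE 0.23).

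Of the output factors, none of the 5 with an adjusted p was called at 24 h, and 2 had an unadjusted p under 0.05. Bhlhe41, the E-box repressor also called DEC2, stood at 0.38 (SE 0.14; adjusted p = 0.0591 in the Wald test of the authors' deposited table), and 19.0% of its exon bases lie opposite another gene. Bhlhe40 stood at -0.13 (SE 0.07), Tef at -0.10 (SE 0.11) and Nfil3 at -0.01 (SE 0.05) from the authors' deposited table. Dbp stood at 0.32 (SE 0.33) from the authors' deposited table, with 18.0% of its exon bases opposite Sphk2. Hlf had a mean of 1.64 normalised counts and no adjusted p in the authors' deposited table.

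Of the ROR and ARNTL relatives, Rorb, a nuclear receptor gene known from brain and retina, stood at 0.30 (SE 0.11; adjusted p = 0.0552 in the Wald test of the authors' deposited table) with a mean of 176 normalised counts. Rora, a receptor that activates Arntl, had a mean of 25.1 normalised counts and a log2 fold of 0.10 (SE 0.27) from the authors' deposited table. Arntl2, a relative of Arntl, stood at 0.15 (SE 0.12) from the authors' deposited table. Npas2, a relative of Clock, had a mean of 0.147 normalised counts at 12 h and was at 0 at 24 h in the authors' deposited table. The 16 genes of modifiers and partners of PER, CRY and CLOCK held 0 calls among the 15 with an adjusted p in the Wald test of the authors' deposited table, and 1 at an unadjusted p under 0.05, Btrc, a ubiquitin ligase subunit gene that targets PER, at 0.17 (SE 0.08), named after its value was seen. The casein kinase genes Csnk1d and Csnk1e, whose products mark PER for degradation, stood at -0.02 (SE 0.04) and -0.05 (SE 0.05) from the authors' deposited table.

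**Figure D5:**
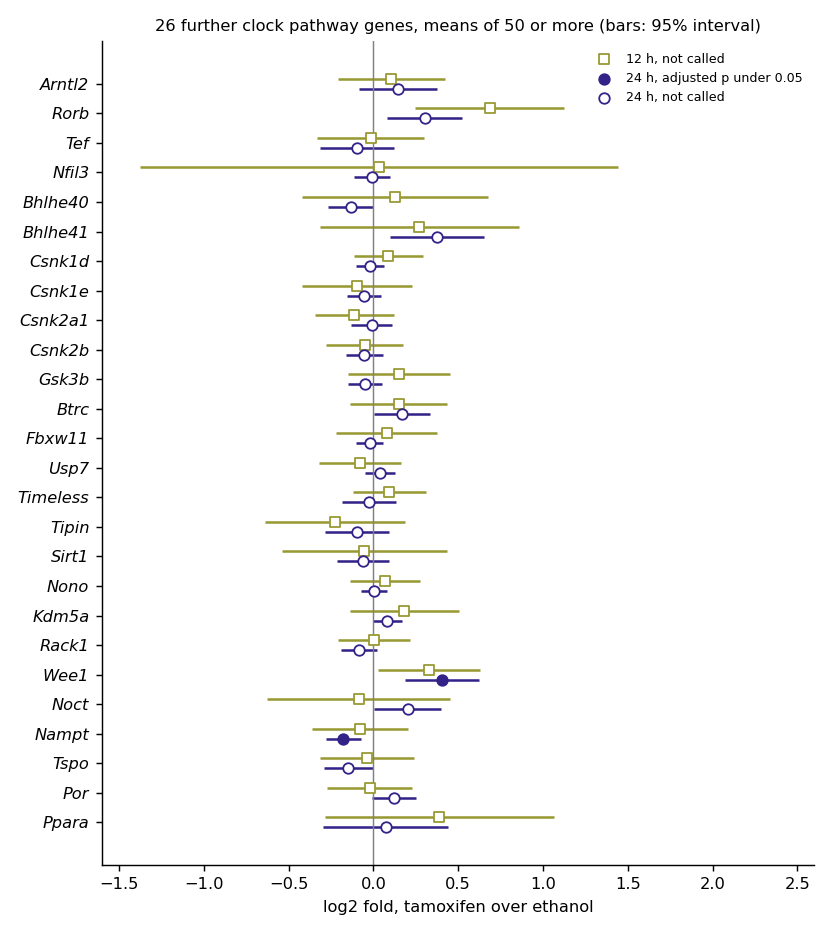
Log2 fold of tamoxifen over ethanol with 95% intervals for the 26 further clock pathway genes averaging 50 or more normalised counts at both times, at 12 h (squares) and 24 h (circles). Wee1 and Nampt are the filled, called genes at 24 h, and Nfil3 has the widest interval at 12 h.

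The genes most like 2 of the members were looked up among 9581 genes by Euclidean distance over 3 values, the folds at 12 and 24 h and the log2 level difference. Nearest to Per2, the member with the largest absolute Wald statistic, were Stk17b, Adcy9 and Nupr1, at distances of 0.124, 0.128 and 0.145. The median distance of all genes to Per2 was 1.27. Nearest to Ciart, the member with the largest level difference, were Got1, Setbp1 and Aoc2, at 0.132, 0.168 and 0.177, beside a median of 1.46. The 12 h fold used there had a standard error of 0.24 for Per2 and 1.24 for Ciart. Both exceed the distances given, so the neighbours of both genes are uncertain. The nearest of 9581 genes lie below the median distance by construction. Likeness in 3 values from 2 tables is a description only.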

How the data were processed

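The 15 libraries were made, per the labels' protocols, with the TruSeq RNA v2 kit, which does not mark the strand. HISAT2, mm10 and DESeq2 are named per the submitters' processing notes, without versions; how reads were counted, with which annotation and model, is not given in the sources used here. Per the file headers, each time's deposited table holds the mean normalised read signal (counts divided by size factors, averaged over libraries), the log2 fold with its standard error, the Wald score, its p-value and that p-value adjusted. At 12 h the means of genes with a single read take 7 distinct values, 3 with negative and 4 with positive folds, which is the labelled design for tamoxifen over ethanol.

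A gene counted as called where its Benjamini-Hochberg adjusted p in the authors' Wald test, over the whole table, was under 0.05. Group levels were solved from mean, fold and library numbers, and divided by the deposited table's total for CPM. The difference of folds was tested by its Wald statistic, adjusted over 14981 genes. The test was also run on simulated data whose errors were drawn from the reported standard errors. That run therefore cannot show whether those standard errors are right for these data. Intervals are 1.96 standard errors wide per side and cover no more than those errors hold. Named genes were all 10 members, listed pathway genes that were called, a fixed set of pathway factors, Klf5 and nearest genes; Thra, Csnk1d, Csnk1e, Btrc, Rorb and the markers named were added after values were seen. Members and lists were chosen with earlier results of these data known, and some listed pathway and marker genes are not reported here. Python 3.11.15 was used with pandas 2.3.3, numpy 2.4.6, scipy 1.17.1 and, for plots, matplotlib 3.10.9. Positions and lengths come from GENCODE M21 on GRCm38, the assembly that mm10 names.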

Additional observations from a re-analysis of the deposited data

How the results depend on the processing

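At each time the folds of the 10 genes, and of the pathway genes called, were recomputed under 4 alternatives: adjustment over all genes with a p, over genes averaging 50 or more normalised counts, folds centred on the median fold, and a standard error no smaller than that of genes of similar mean. Of 88 recomputed values 85 kept their direction and side of the threshold, and the exceptions were those of Clock at 24 h given with its value. The count of clock genes called at 24 h was 7 or 6, and at 12 h it was 0 throughout. The count of further pathway genes called at 24 h was 2, or 3 when adjusted over genes with a mean of at least 50. No fold passed as different between times under the alternatives tried, with 0 genes at an unadjusted p under 0.05 in the Wald test. Genes at least 2-fold apart between times numbered 5 to 8 of 10 over the scalings and groups tried. No paired analysis was possible because the tables hold no value per library, and leaving out each replicate in turn could not be run for the same reason. The depth behind a single library's value is therefore unknown, and at 12 h the standard errors limit what could be seen.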

Other observations

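Further pathway genes also stood at different levels in the tables, as a description across tables normalised separately; the genes named here were chosen after their values were seen. Of 26 genes averaging 50 or more normalised counts at both times, 5 were at least 2-fold higher and 2 at least 2-fold lower at 24 h in ethanol, with a median log2 difference of 0.24. Over all genes of that level 7.98% were at least 2-fold higher and 9.20% at least 2-fold lower, with a median of -0.06. The highest was Sirt1, a NAD-dependent deacetylase gene, at 1.87, with Gsk3b, a kinase of several clock proteins, at 1.34. The lowest were Tspo, an outer mitochondrial membrane protein gene, at -1.58 and Tipin, of the replication fork protection complex, at -1.48. Timeless, the partner of Tipin in that complex, was at -0.92. The differences in the tamoxifen libraries were 1.87 for Sirt1, 1.14 for Gsk3b, -1.68 for Tspo and -1.35 for Tipin.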
